A study of Mus musculus with 10 samples.

Results

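The genes described are the small heat shock proteins of striated muscle, Hspb1, Hspb2, Hspb3, Hspb6, Hspb7, Hspb8 and Cryab, with their co-chaperone Bag3. They are 8 of the 56832 genes in the table, chosen by symbol, and all 8 had enough counts to be tested. Their transcripts were counted in sorted heart cells of the Sprr1a-GFP genotype, whose mice carry a green fluorescent reporter named for Sprr1a. Every library title carries the tag Hetz, which was not spelled out in the labels. All mice had a myocardial infarction at 12 weeks of age and gave cells 5 days later by enzyme perfusion of the heart and flow sorting, so no group without infarction was compared. GFP+ cells are labelled border zone cardiomyocytes and GFP- cells remote zone cardiomyocytes, and the 10 libraries are 1 GFP+ and 1 GFP- library from each of 5 animals. The reporter, not dissection, defined the zones. The GFP+ titles name a DAPI-negative and a DAPI-positive gate and the GFP- titles only a DAPI-negative one, so the gate and the GFP group cannot be told apart. Animal identifiers begin with 17C (17C1, 17C2) or with 21A (21A4, 21A5, 21A7), and the titles of these series are worded differently.

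Small heat shock proteins share an alpha-crystallin domain, assemble into oligomers and hold unfolding proteins without using ATP. BAG3 links the small heat shock proteins, through motifs that bind HSPB8 and HSPB6, to the ATP-driven chaperone HSP70, and feeds damaged filamin and other sarcomere proteins into chaperone-assisted selective autophagy. In striated muscle these proteins sit at Z-discs and along filaments, and mutations of human CRYAB, HSPB8 and BAG3 cause myofibrillar myopathies or dilated cardiomyopathy. Several of the genes are known targets of heat shock factor 1, which binds inverted repeats of the bases GAA.

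The promoters were searched for that element. Windows around the start site from RefSeq (build GRCm38.p6, while the counts were made on GRCm39) were matched for 6 of the 8 genes, Hspb1, Hspb3, Hspb6, Hspb7, Hspb8 and Bag3. The 8-letter word GAANNTTC, its own reverse complement and so the same on both strands, was in 5 of the 7 member windows and in 7.86% of all 32851 windows. Only the Hspb7 window and the first of the Hspb6 windows lacked it. The opposite arrangement, TTCNNGAA, was in 0 of the 7 member windows and in 8.52% of all windows. Hspb1 held 2 copies upstream of its start, and the exact letters GAAGTTTC occurred in Hspb1, Hspb6, Hspb8 and Bag3. The Hspb3 window held the variant GAATTTTC. The stretches of the 4 genes that share GAAGTTTC are given 5' to 3' on the strand of the gene, with the matches in capitals. Letter matches describe the sequence and are not binding sites.
Hspb1 chr5:135887669-135887918: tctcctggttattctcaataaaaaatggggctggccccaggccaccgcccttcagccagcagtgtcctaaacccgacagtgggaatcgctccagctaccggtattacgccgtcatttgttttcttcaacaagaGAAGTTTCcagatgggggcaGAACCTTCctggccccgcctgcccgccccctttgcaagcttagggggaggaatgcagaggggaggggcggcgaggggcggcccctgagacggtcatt
Hspb6 chr7:30553051-30553300: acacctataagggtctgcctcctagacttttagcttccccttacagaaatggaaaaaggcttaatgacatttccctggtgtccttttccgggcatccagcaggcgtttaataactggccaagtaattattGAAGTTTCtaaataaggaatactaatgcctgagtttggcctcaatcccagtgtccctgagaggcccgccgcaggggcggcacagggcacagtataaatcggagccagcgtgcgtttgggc
Hspb8 chr5:116422844-116422873: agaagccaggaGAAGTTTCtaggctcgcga
Bag3 chr7:128523603-128523632: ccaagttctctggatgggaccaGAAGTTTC

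The stretches of Hspb1 and Hspb6 (forward strand) end at the base before the start. That of Hspb8 (reverse strand) runs from base -9 to base 21 and that of Bag3 (forward strand) from base 21 to base 50 relative to the start. Of these 4 genes, only Hspb1 passed the paired test over all 5 mice.

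The libraries held 12244373 to 38879965 counts, of which mitochondrially encoded genes took 35.7 to 91.2% in GFP+ libraries, against 9.20 to 61.9% in GFP- libraries. The reporter gene checked the sort. Sprr1a levels, as counts scaled to a common library size with TMM factors (CPM), ranged over 158 to 317 in GFP+ libraries, against 0.191 to 8.98 in GFP- libraries, a paired log2 fold change of 6.64 ± 0.75 (SE; edgeR adjusted p = 0.0201). Summed levels of 9 cardiomyocyte markers were 10449 to 40717 CPM in GFP+ libraries, against 3919 to 47852 CPM in GFP- libraries. Summed levels of 8 fibroblast markers were 264 to 5123 CPM in GFP+ libraries, against 130 to 12064 CPM in GFP- libraries. Both libraries of mouse 21A7 stood apart, the GFP+ one with the highest mitochondrial share and the GFP- one with more fibroblast (12064 CPM) than cardiomyocyte marker signal (3919 CPM). Macrophage markers summed to 19.2 to 281 CPM in GFP+ libraries, against 20.2 to 591 CPM in GFP- libraries. Endothelial markers summed to 35.1 to 249 CPM in GFP+ libraries, against 58.0 to 487 CPM in GFP- libraries. Mural markers summed to 186 to 235 CPM in GFP+ libraries, against 62.4 to 516 CPM in GFP- libraries. The 4 mesothelial markers summed to 42.9 to 204 CPM in GFP+ libraries, against 0.479 to 104 CPM in GFP- libraries, and were higher in the GFP+ library of 5 of 5 mice. Markers at 0 counts were Tcf21 in 1 library of each group, Myh11 in 2 GFP+ libraries, and Ptprc, Msln, Upk3b and Upk1b in 1 GFP- library each. In pooled cells, fewer cells of a type and less RNA per cell cannot be told apart.

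Together the 8 genes took 0.339, 0.564, 0.76, 1.01 and 0.267% of the counts outside mitochondrially encoded genes in the GFP+ libraries of 17C1, 17C2, 21A4, 21A5 and 21A7. In the GFP- libraries of the same mice they took 0.433, 0.461, 0.402, 0.402 and 0.105%. The share was higher in the GFP+ library of 4 mice, with 17C1 the exception. Per kilobase of annotated exon, Cryab was the most abundant member, at 667 ± 319 CPM per kb in GFP+ and 253 ± 172 in GFP- cells (SD, n = 5 each), and ranked 1 in 9 of 10 libraries. Hspb7 followed at 405 ± 219 CPM per kb in GFP+ and 206 ± 123 in GFP- cells. By group mean, Hspb1 ranked 3 in GFP+ cells with 177 ± 78.1 CPM per kb and 6 in GFP- cells with 54.6 ± 20.96. In single libraries it ranked 2 in 1, 3 in 6 and 6 in 3 of the 10, so rank 6 did not hold in every GFP- library. Hspb6 stood at 118 ± 56.8 CPM per kb in GFP+ and 119 ± 77.5 in GFP- cells. Hspb8 had 106 ± 48.9 CPM per kb in GFP+ and 73.1 ± 56.6 in GFP- cells. Bag3 was lower in level, with 55.8 ± 34.0 CPM per kb in GFP+ and 63.2 ± 25.4 in GFP- cells. The least abundant were Hspb2, with 18.8 ± 12.4 CPM per kb in GFP+ and 11.1 ± 9.08 in GFP- cells, and Hspb3, with 4.71 ± 3.93 in GFP+ and 3.93 ± 3.56 in GFP- cells. Neighbours in this order overlapped in range in both groups, except that every GFP- library had more Hspb1 than any had Hspb2. Exon lengths came from an annotation of the earlier build and shift the order, not the comparisons between groups.

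**Figure D1:**
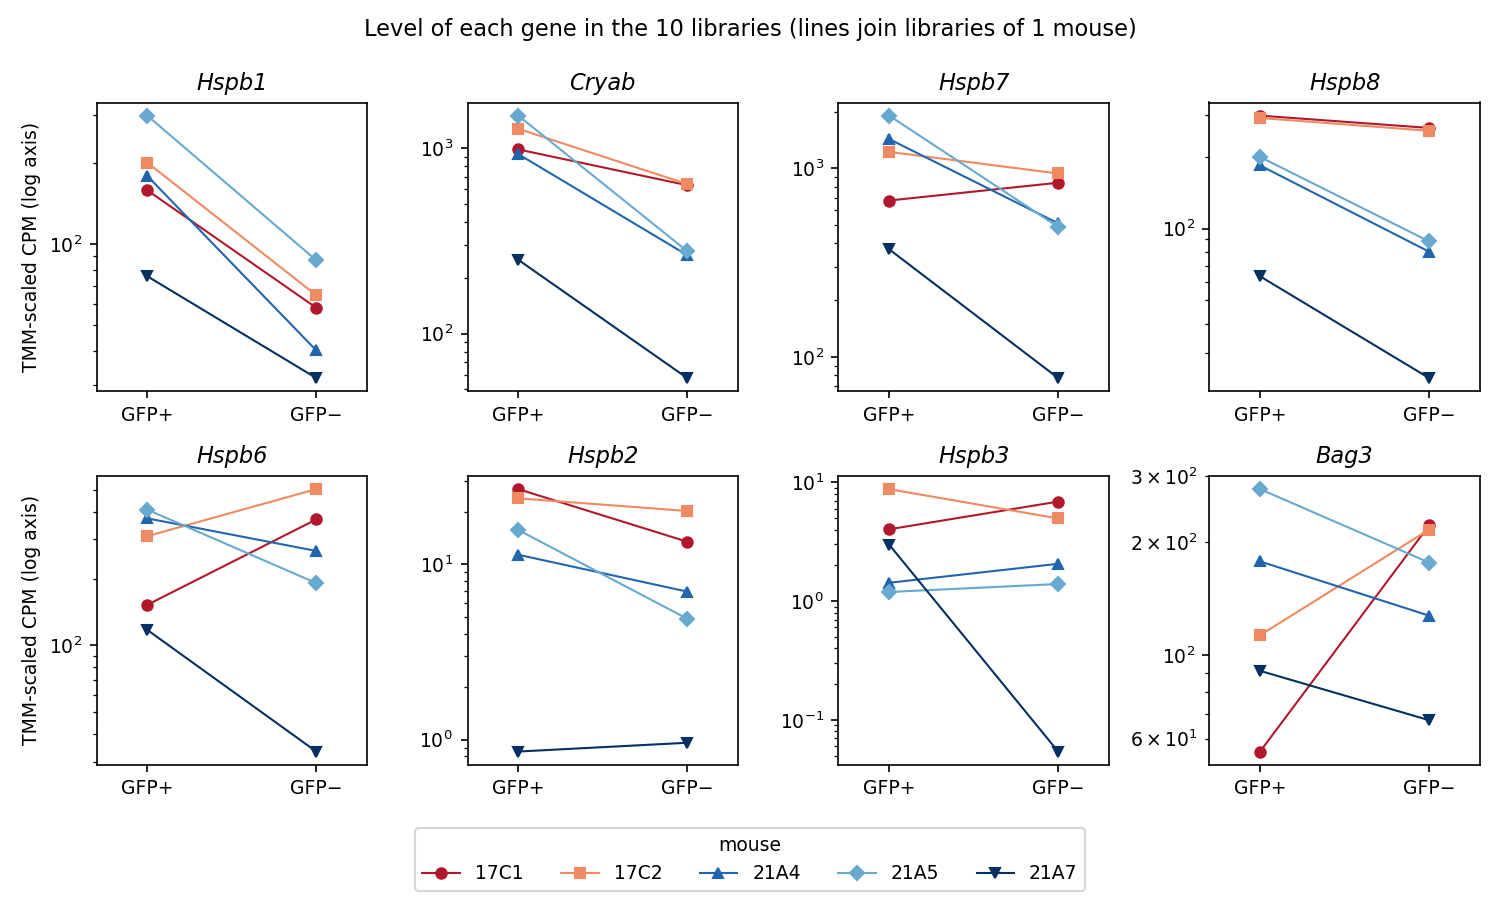
TMM-scaled CPM (log axis) of each gene in GFP+ and GFP- libraries, 1 panel per gene, with a line joining the libraries of each mouse. All 5 lines of Hspb1, Cryab and Hspb8 are higher at GFP+, while the lines of Hspb6 and Bag3 slope one way in the 17C mice (red and orange) and the other way in the 21A mice (blues).

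Hspb1 rose in GFP+ cells. It encodes HSP25, the mouse form of HSP27, a stress-phosphorylated chaperone that also caps actin filaments. In mice 17C1, 17C2, 21A4, 21A5 and 21A7 it stood at 158, 200.3, 179, 299 and 75.9 CPM in GFP+ libraries, against 58.0, 64.5, 40.3, 87.0 and 31.8 CPM in GFP- libraries. Each GFP+ library exceeded the GFP- library of its mouse, although the GFP+ value of 21A7 was below the GFP- value of 21A5. The paired log2 fold change was 1.65 ± 0.24 (SE; edgeR quasi-likelihood adjusted p = 0.0318), with differences per mouse of 1.25 to 2.15. Hspb1 was the only member called among 104 called genes, 0.858% of the 12115 tested. The call was lost without pairing (1.70, adjusted p = 0.173, where 0.0825% of genes were called) and without mouse 17C2 (adjusted p = 0.127), 21A4 (0.242) or 21A5 (0.129). It was also lost when libraries were scaled by their totals alone (0.64, adjusted p = 0.609), a scaling that moved the median of all genes from -0.04 to -1.15, or by their sarcomere counts (1.40, adjusted p = 0.520, median -0.34). The summed mesothelial markers were, like Hspb1, higher in the GFP+ library of every mouse. In 17C1, 17C2, 21A4, 21A5 and 21A7 their sum was 67.3, 83.2, 62.7, 42.9 and 204 CPM in GFP+ libraries. In GFP- libraries it was 0.479, 7.95, 21.9, 15.8 and 104 CPM. The part of these markers in the difference of Hspb1 was not tested.

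Cryab, Hspb7 and Hspb8 were higher in GFP+ than in GFP- cells of most or all mice without passing the paired test over all 5. Cryab encodes alpha-B-crystallin, which guards desmin and titin. It had 984, 1271, 929, 1497 and 249.9 CPM in GFP+ libraries of 17C1, 17C2, 21A4, 21A5 and 21A7, against 631, 639.8, 265, 278 and 57.5 CPM in GFP- libraries. Every mouse had more in GFP+ cells, and the 21A7 libraries were the lowest of both groups. The paired log2 fold change of Cryab was 1.60 ± 0.37 (edgeR adjusted p = 0.0988; 1.40 and 0.610 without pairing). Cryab passed with DESeq2 (adjusted p = 4.15e-05) and limma voom (0.00229), both with the mouse as a block.

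Hspb7, a cardiac and skeletal muscle member that binds filamin C and actin at the sarcomere, had 676, 1223, 1430.1, 1904 and 372 CPM in GFP+ libraries in the same order of mice. Its GFP- libraries had 839, 939.7, 512, 489.5 and 77.4 CPM. It was higher in GFP+ cells of 4 mice and lower in 17C1, with a paired log2 fold change of 1.17 ± 0.46 (edgeR adjusted p = 0.276; DESeq2 0.0432, voom 0.0244). Hspb8 is the member that forms a stable complex with BAG3. It had 297, 290.5, 184, 199.5 and 63.1 CPM in GFP+ libraries, against 264, 257, 80.0, 88.4 and 23.6 CPM in GFP- libraries. All 5 mice had more Hspb8 in GFP+ cells, but the 17C differences were 0.17 and 0.18 on the log2 scale against 1.17 to 1.41 in the 21A mice. Its paired log2 fold change was 0.83 ± 0.29 (edgeR adjusted p = 0.228; DESeq2 0.0519, voom 0.0196).

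Hspb6 and Bag3 did not move in 1 direction. Hspb6 encodes HSP20, a cardioprotective chaperone phosphorylated by protein kinase A. It stood at 152, 310.04, 373, 408 and 117 CPM in GFP+ libraries of 17C1, 17C2, 21A4, 21A5 and 21A7, and at 369, 504, 266, 191 and 33.4 CPM in GFP- libraries. Both 17C mice had less in GFP+ cells and all 21A mice had more, so the pooled log2 fold change was 0.29 ± 0.47 (edgeR adjusted p = 0.827) and its sign turned without pairing (-0.0025), without 21A7 (-0.10) and under library totals (-0.88). Bag3 had 55.5, 113, 178, 277 and 90.9 CPM in GFP+ libraries, against 222, 216, 128, 177 and 67.2 CPM in GFP- libraries. The same split held, and its pooled log2 fold change was -0.24 ± 0.43 (edgeR adjusted p = 0.841). Without mouse 17C1 the value of Bag3 was 0.18, so the sign rested on that animal.

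Hspb2 and Hspb3, which form a complex with each other in muscle, were the least abundant members, and neither passed. Hspb2 counts were 8 to 366 per library, 26.9, 23.8, 11.3, 15.7 and 0.854 CPM in GFP+ and 13.5, 20.2, 6.98, 4.89 and 0.958 CPM in GFP- libraries. It was higher in GFP+ cells of 4 mice (log2 fold change 0.74 ± 0.30, edgeR adjusted p = 0.288). Hspb2 lies back to back with Cryab on the opposite strand and shares 252 exonic bases with it, which is 30.2% of Hspb2 in the annotation used here. The library kit does not mark strand, so part of the counts of either gene may belong to the other. Hspb3 counts were 3 to 115, and its 4.02, 8.76, 1.43, 1.19 and 2.99 CPM in GFP+ against 6.88, 4.96, 2.06, 1.39 and 0.0542 CPM in GFP- libraries gave 0.55 ± 0.87 (adjusted p = 0.820), with 2 of 5 mice higher. Its widest difference, 4.50 in mouse 21A7, rests on a GFP- library with 3 Hspb3 counts, against 28 in its GFP+ library.

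Over all 8 members the paired log2 fold change had a median of 0.79 and was above 0 for 7, against a median of -0.04 and 5736 above 0 among the 12115 genes tested. With library totals alone 3 were above 0 (Hspb1, Cryab and Hspb7), on a scale where the median gene stood at -1.15. With edgeR 0 members passed without pairing, where 1 had an unadjusted p under 0.05, as did 8.18% of all genes. In the paired edgeR fit 5 members had an unadjusted p under 0.05 and were higher in GFP+ cells, as were 7.74% of all genes (15.3% in both directions). DESeq2 with the mouse as a block called 3 members higher, against 3.71% of all genes higher and 7.31% called in all. Paired voom called 4 members higher, against 4.76% of all genes higher and 9.60% called in all.

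The split between the mouse series was tested by the interaction of GFP group and series, which called 7.62% of all genes. The GFP+ minus GFP- difference was smaller in the 17C than in the 21A mice by 1.99 ± 0.40 on the log2 scale for Bag3 (SE; edgeR adjusted p = 0.0275), by 2.12 ± 0.46 for Hspb6 (0.0322) and by 1.87 ± 0.46 for Hspb7 (0.0406). The differences of Hspb8 (-1.09 ± 0.34, adjusted p = 0.0768) and Cryab (-1.303 ± 0.42, 0.0850) did not pass. That of Hspb1 was -0.19 ± 0.37 (adjusted p = 0.806), and those of Hspb2 (-0.26 ± 0.55) and Hspb3 (-1.01 ± 1.62) had wide errors. Under library totals the signs of all 8 turned, because the median of all genes moved to 2.15. Tested against 0 on that scale, 0 of the 8 passed (edgeR; 0.18 ± 1.44 and adjusted p = 0.926 for Bag3). Relative to the median, a comparison that was not tested, the differences were -1.96 for Bag3, -2.05 for Hspb6 and -1.80 for Hspb7.

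The fit of the 17C mice, which called 13.6% of genes, holds only the pairs of 17C1 and 17C2. Its standard errors lean on a spread pooled over genes. They say little about the spread between these mice, where Bag3 differed by -1.998 and -0.93. Within this series Hspb1 (1.55 ± 0.27, edgeR adjusted p = 0.000281) and Cryab (0.83 ± 0.26, 0.0357) rose in GFP+ cells. Bag3 fell (-1.45 ± 0.29, adjusted p = 0.00149) and so did Hspb6 (-0.98 ± 0.27, 0.0172). Hspb7 (0.043 ± 0.27) and Hspb8 (0.18 ± 0.26) lay near 0. Within the 21A mice, where 6.72% were called, Hspb1 (1.75 ± 0.27, adjusted p = 0.00922), Cryab (2.14 ± 0.32, 0.00898), Hspb7 (1.92 ± 0.35, 0.0148) and Hspb8 (1.28 ± 0.23, 0.0144) all rose. Hspb6 (1.15 ± 0.31, adjusted p = 0.0596) and Bag3 (0.54 ± 0.24, 0.199) did not pass. Markers of muscle and of other cell types moved with the series. In the 17C mice 10 of 19 sarcomere genes and 6 of 9 cardiomyocyte markers were lower in GFP+ cells and 3 of 8 fibroblast markers higher. In the 21A mice 4 of 19 sarcomere genes were higher, and 6 of 8 fibroblast, 6 of 7 macrophage and 4 of 6 endothelial markers were lower. Mesothelial markers were higher in both series, 4 of 4 in the 17C and 3 of 4 in the 21A mice, and the difference of Msln was larger in the 17C mice by 3.41 (edgeR adjusted p = 0.0349). That of the mural marker Cspg4 was larger in the 17C mice by 2.37 (edgeR adjusted p = 0.0201). The other mural markers did not pass this test and went both ways, from -6.88 for Myh11 to 1.73 for Acta2. The part of these shifts in the series difference was not tested. A further fit took as covariate a non-myocyte score, the mean of 27 fibroblast, macrophage, endothelial and mural markers. The score holds no mesothelial marker. There Hspb1 kept its call (1.4996, edgeR adjusted p = 0.0388). The other members did not pass in that fit, where Cryab stood at 1.10 (adjusted p = 0.122), Hspb7 at 0.50, Hspb8 at 0.50, Hspb6 at -0.41 and Bag3 at -1.07 (adjusted p = 0.102).

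**Figure D2:**
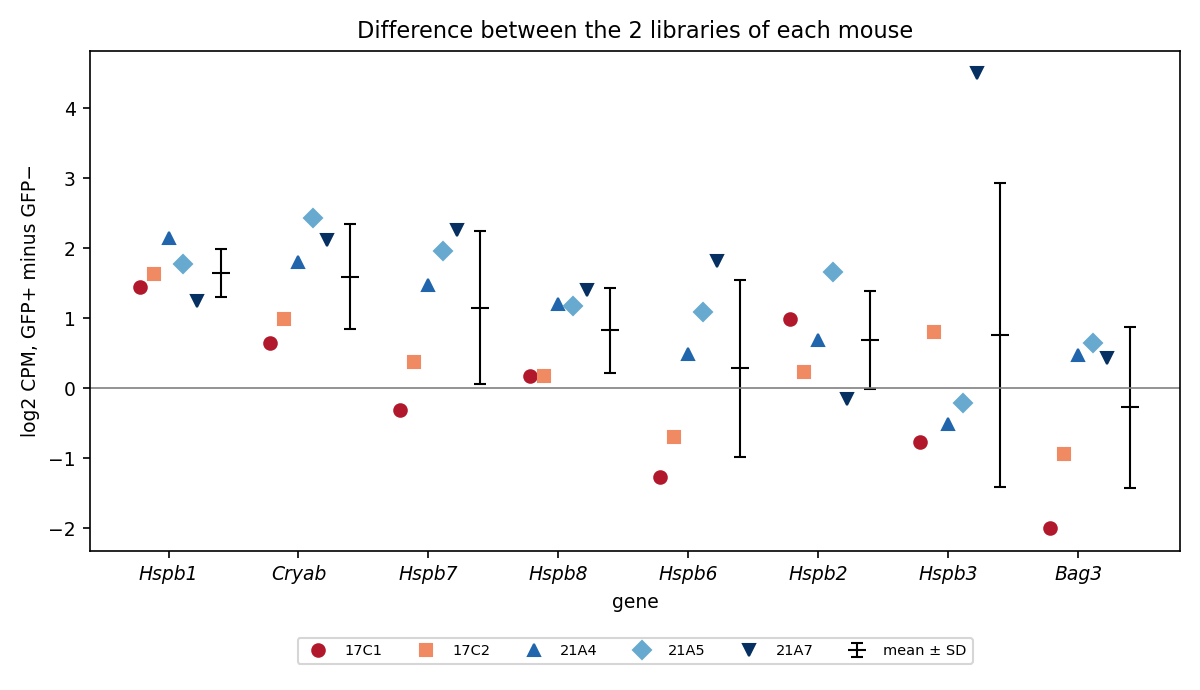
Difference in log2 CPM (GFP+ minus GFP-) between the libraries of each mouse for the 8 genes, with the mean and SD over 5 mice as a bar beside the points. Hspb1 differences lie between 1.25 and 2.15 in both series, whereas Bag3 differences are -1.998 and -0.93 in the 17C mice and between 0.44 and 0.65 in the 21A mice.

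Ratios of counts between members do not depend on how libraries are scaled. They can still change with the cell makeup of the libraries, a part that was not tested. Of the 28 pairs of members, 9 changed in 1 direction in 5 of 5 mice, and Bag3 was in 5 of these. How often pairs of other genes do so was not counted. The pairs share genes and are not independent, and 5 mice cannot give a two-sided exact sign-flip p below 0.0625. There were 17.7, 11.2, 5.22, 5.41 and 2.75 Cryab counts per Bag3 count in the GFP+ libraries of 17C1, 17C2, 21A4, 21A5 and 21A7, against 2.85, 2.96, 2.08, 1.58 and 0.856 in the GFP- libraries. The ratio was thus higher in every GFP+ library than in the GFP- library of its mouse, by 1.87 ± 0.48 on the log2 scale (SD, n = 5). The Hspb7 to Bag3 ratio was 12.2, 10.8, 8.04, 6.88 and 4.10 in GFP+ libraries, against 3.79, 4.35, 4.01, 2.77 and 1.15 in GFP- libraries (1.43 ± 0.33). The Hspb8 to Bag3 ratio, of the partners of 1 complex, was 5.36, 2.57, 1.03, 0.721 and 0.694 in GFP+ libraries, against 1.19, 1.19, 0.627, 0.5005 and 0.352 in GFP- libraries (1.10 ± 0.64). The change was 1.93 ± 1.08 for Hspb1 and 0.56 ± 0.53 for Hspb6, where the lowest mouse was at 0.0071. Hspb2 to Bag3 was higher in 4 mice (0.96 ± 1.34) and Hspb3 to Bag3 in 3 (1.29 ± 2.58). The Hspb6 to Hspb7 ratio (-0.87 ± 0.25) and the Hspb6 to Cryab ratio (-1.31 ± 0.62) were lower in GFP+ cells of all 5 mice. The Hspb8 to Cryab ratio was lower (-0.77 ± 0.30) and the Hspb1 to Hspb2 ratio higher (0.96 ± 0.64) in 5 of 5 mice.

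**Figure D3:**
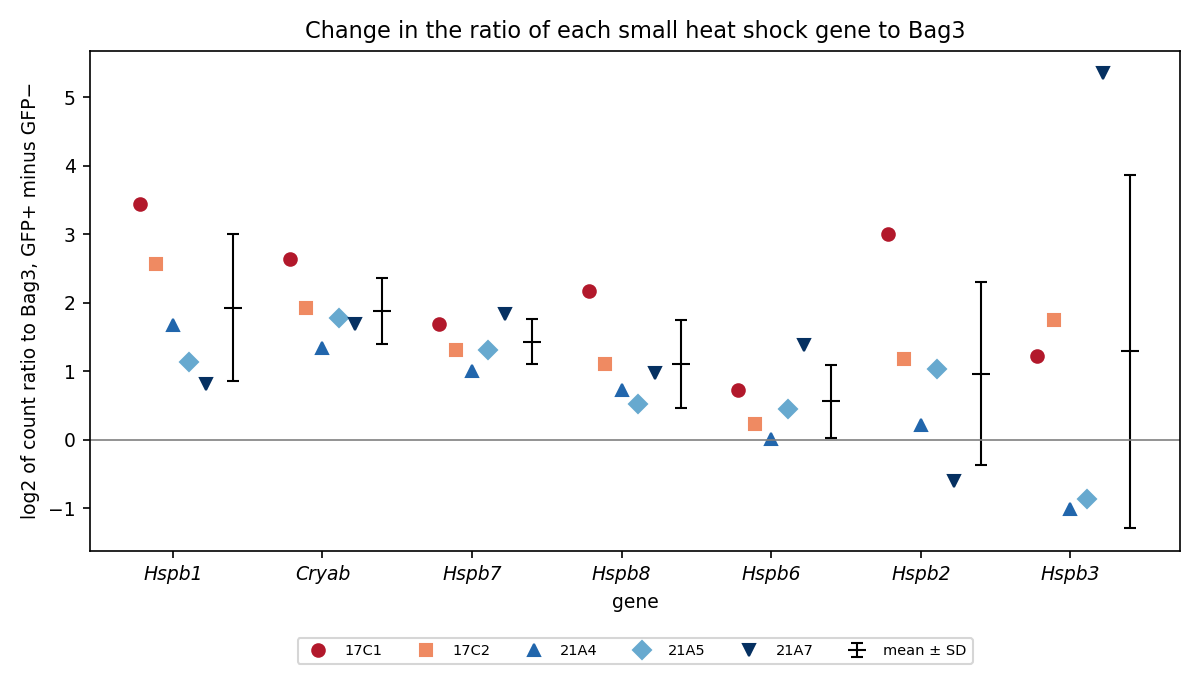
Change in the log2 ratio of counts to Bag3 counts (GFP+ minus GFP-) for each mouse and small heat shock gene, with the mean and SD over 5 mice. All 5 points lie above 0 for Hspb1, Cryab, Hspb7, Hspb8 and Hspb6, from 1.33 to 2.64 for Cryab and from 1.00 to 1.83 for Hspb7.

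The muscle content of the libraries varied, but sarcomere genes are no fixed measure of it. In the paired edgeR fit 12 of 19 had a log2 fold change above 0 (Actc1 1.32) and the others below (Myh6 -0.71). In the 17C mice 10 were called lower. With that limit, each member was also set against the summed counts of these 19 genes in the same library. On this scale Cryab was higher in GFP+ cells of every mouse, by 1.61, 1.76, 1.35, 1.301 and 0.63 in 17C1, 17C2, 21A4, 21A5 and 21A7 (mean 1.33 ± 0.44, SD). Hspb7 was higher by 0.65, 1.15, 1.02, 0.83 and 0.77 (0.89 ± 0.20). Hspb6 followed the sarcomere genes closely, at -0.31, 0.065, 0.027, -0.031 and 0.32 (0.015 ± 0.23). Bag3 was at -1.03, -0.17, 0.020, -0.48 and -1.06 (-0.54 ± 0.49), below 0 in 4 mice. Hspb1 was above 0 in 4 mice with a wide spread (2.41, 2.40, 1.69, 0.66 and -0.24), and Hspb8 likewise above 0 in all but 21A7 (0.56 ± 0.54). Hspb2 (0.42 ± 1.33) and Hspb3 (0.75 ± 2.29) spread across 0. Myh6, the main adult myosin, made up 11.8 to 47.5% of the sarcomere sum, so the comparison was repeated with each sarcomere gene weighing the same, which gave 1.40 ± 0.47 for Cryab, 0.96 ± 0.14 for Hspb7, 0.085 ± 0.15 for Hspb6 and -0.47 ± 0.45 for Bag3. An edgeR fit scaled to these genes called 0 genes in all, with 943 at an unadjusted p under 0.05. Its adjusted p was 0.375 for Cryab and 0.539 for Hspb7.

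**Figure D4:**
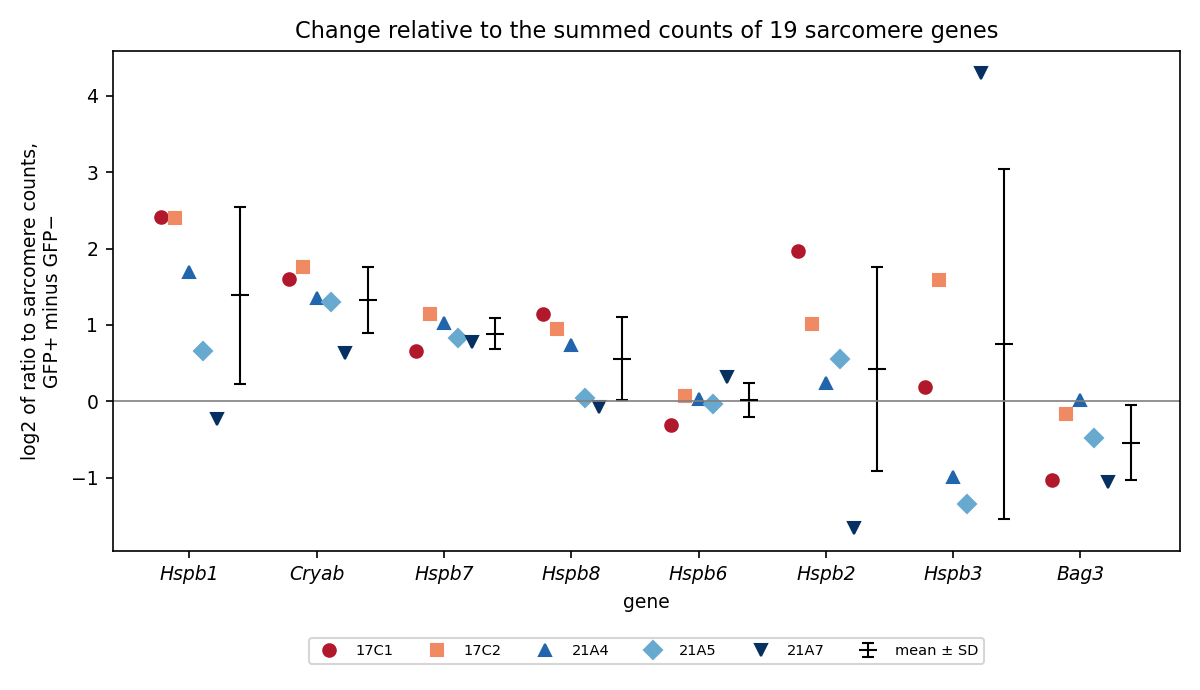
Change in the log2 ratio of each gene to the summed counts of 19 sarcomere genes (GFP+ minus GFP-) in each mouse, with the mean and SD over 5 mice. Hspb7 (0.65 to 1.15) and Cryab (0.63 to 1.76) lie above 0 in every mouse, and Hspb6 lies around 0.

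The other genes of the system were counted from fixed lists, and none passed the paired edgeR test. Of the remaining small heat shock genes, Cryaa of the lens (0 to 24 counts per library), Hspb9 (15 counts in 1 GFP- library and 0 elsewhere) and Odf1 (0 counts), both of the testis, were too low to test. Among the 5 other BAG genes, 0 had an unadjusted p under 0.05, 0 passed with DESeq2 or voom, and the median log2 fold change was -0.05. Bag6, which acts in membrane protein quality control, averaged 87.0 CPM in GFP+ and 87.1 CPM in GFP- cells. Bag1, which couples HSP70 to the proteasome, averaged 69.2 CPM in GFP+ and 83.4 CPM in GFP- cells (-0.24, adjusted p = 0.820) and, like Bag3, fell in the 17C mice (-1.29, adjusted p = 0.0022). Bag2, an inhibitor of the ligase CHIP, averaged 14.2 CPM in GFP+ and 11.2 CPM in GFP- cells.

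Of 13 partners of BAG3 in chaperone-assisted autophagy, 8 had a log2 fold change above 0 (median 0.084). With edgeR, 2 were higher at an unadjusted p under 0.05, against 7.74% of all genes higher (15.3% in both directions). DESeq2 and voom each called 1 higher, against 3.71 and 4.76% of all genes higher (7.31 and 9.60% in both directions). That gene was Sqstm1, the cargo receptor p62, at 360.4 ± 119 CPM in GFP+ and 184 ± 92.6 CPM in GFP- cells (SD, n = 5). Sqstm1 was higher in GFP+ cells of 5 of 5 mice, with a paired difference of 1.03 ± 0.27 on the log2 scale (edgeR adjusted p = 0.138; DESeq2 0.00129). The constitutive HSP70 gene Hspa8 averaged 631 CPM in GFP+ and 569 CPM in GFP- cells (0.17 ± 0.28, adjusted p = 0.834). Ywhag, a 14-3-3 protein that BAG3 binds, averaged 120 CPM in GFP+ and 109 CPM in GFP- cells (0.15 ± 0.22). Sqstm1 (1.32, adjusted p = 0.0226) and Synpo2, the synaptopodin that anchors BAG3 at the Z-disc (1.54, 0.00904), rose in the 21A mice, and Map1lc3a fell in the 17C mice (-1.48, 0.000786).

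All 7 muscle clients had a log2 fold change above 0 (median 0.61). By an unadjusted p under 0.05 with edgeR, 3 of the 7 were higher, against 7.74% of all genes. DESeq2 and voom each called 3 higher (Des, Ttn and the filamin gene Flnc), against 3.71 and 4.76% of all genes. Flnc averaged 668 CPM in GFP+ and 244 CPM in GFP- cells (1.29 ± 0.31, edgeR adjusted p = 0.114, DESeq2 0.00021). Des, the intermediate filament gene desmin that CRYAB binds, averaged 4555 CPM in GFP+ and 924 CPM in GFP- cells (2.49 ± 0.58, edgeR adjusted p = 0.100; DESeq2 8.05e-07). The giant sarcomere spring gene Ttn averaged 6798 CPM in GFP+ and 3227 CPM in GFP- cells (1.28 ± 0.53, adjusted p = 0.299; DESeq2 0.00948). Actn2 of the Z-disc averaged 908 CPM in GFP+ and 886 CPM in GFP- cells (0.26 ± 0.56) and fell in the 17C mice (-1.21, adjusted p = 0.00477).

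The 17 genes of heat shock factor 1 and its inducible chaperones had a median of -0.10, with 7 above 0. At an unadjusted p under 0.05, 1 was higher and 2 were lower, a share near the 15.3% of all genes. DESeq2, which called 7.31% of all genes, called 1 lower, and voom called 0. Hsp90ab1 averaged 696 CPM in GFP+ and 640 CPM in GFP- cells (0.10 ± 0.29). Its stress-inducible paralog Hsp90aa1 averaged 113 CPM in GFP+ and 88.0 CPM in GFP- cells (0.49 ± 0.26, edgeR adjusted p = 0.417). Fkbp4, an HSP90 co-chaperone, averaged 49.7 CPM in GFP+ and 123 CPM in GFP- cells (-1.07 ± 0.37, edgeR adjusted p = 0.229; DESeq2 0.0474) and fell in the 17C mice (-1.94, 2.53e-05). Hspa1a, the inducible HSP70 gene, was added after its values were seen and averaged 6.89 CPM in GFP+ and 10.01 CPM in GFP- cells (-0.86, adjusted p = 0.301). Its near-identical copy Hspa1b, likewise added, averaged 12.02 CPM in GFP+ and 12.00 CPM in GFP- cells (-0.096, edgeR adjusted p = 0.932). The counts of both are uncertain because the copies are so alike.

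Correlations were taken across the 10 libraries, which differ in depth and cell makeup. The part of these differences in the correlations was not tested. The members fell into different company. The log2 CPM of Hspb7 and Cryab had r = 0.955, Hspb8 and Cryab 0.935, Hspb2 and Hspb8 0.927, and Hspb6 and Hspb7 0.925. Bag3 had r of 0.238 to 0.772 with the small heat shock genes, the highest with Hspb6. Likeness was sought among 4760 genes averaging 10 CPM or more. Among the genes most like Hspb6 was the sarcomere gene Myom1 (r = 0.991). Among those most like Hspb7 were the sarcomere genes Mybpc3 (0.991) and Tpm1 (0.984), and those most like Cryab were Pacsin3 (0.989), Cst3 (0.985) and Rab3ip (0.985). Hspb8 was most like Hagh (0.996), Vdac2 (0.990) and Drap1 (0.987). Hspb1 was most like Uck2 (0.971), Plekho1 (0.970) and Enah (0.961), an actin regulator. Bag3 was most like Tead1 (0.958), a transcription factor of the Hippo pathway, Dusp8 (0.949) and Dyrk1a (0.941). Hspb2 was most like Higd2a (0.987), Cav3 (0.976) and Nqo1 (0.974), and Hspb3 most like Zadh2 (0.923), Plekha1 (0.920) and Ube2a (0.918).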

How the data were processed

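RNA of sorted heart cells from 5 mice (10 libraries) was amplified with SMARTer chemistry and made into Nextera XT libraries, per the labels' protocols. That kit does not mark strand, and without molecular identifiers PCR copies count as reads. The deposited values are whole-number counts of reads per gene, made by the authors with build GRCm39 and the tools Subread 2.0.1, STAR 2.7.9a, fastp 0.23.1 and featureCounts, per the submitters' processing notes. The sources used here do not give the annotation, the strand setting or how reads with several matches were counted.

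The test was that of edgeR 4.0.16 (R 4.3.3): TMM factors, filterByExpr (12115 genes kept), quasi-likelihood F-test, two-sided, Benjamini-Hochberg adjusted p under 0.05 over all genes tested, with the mouse as a block. Libraries with 1 animal identifier form a pair. Over all genes, departures from the group mean correlated within the pair at r = 0.0741 for mouse 21A5, 0.161 for 21A4, 0.292 for 17C1, 0.397 for 17C2 and 0.637 for 21A7. The paired fit, the members and the lists were chosen with earlier results of these data known. Standard errors are the log2 fold change over the square root of F. CPM values are TMM-scaled, and log2 CPM values use a prior count of 2. The paired fit was tried on simulated counts with the same change in every mouse, which does not cover changes that differ between series. No library pair was identical. The labels name separate mice but no cell numbers.

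Named genes are the 8 members, from each list the genes passing the paired test plus the 3 with the highest mean CPM, and for each member the 3 tested genes with a mean of at least 10 CPM and the highest r, of which some are not reported here. Genes called within a series, and Flnc, were named after their values were seen. Alternatives were DESeq2 1.42.0, limma 3.58.1 voom, other scalings and filters, each series alone, the non-myocyte score and each mouse left out. A mean over sarcomere genes in place of their sum was added after the data were seen.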

Additional observations from a re-analysis of the deposited data

Results flagged for a closer look

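Values of 3 members in mouse 21A7 lay apart from the other libraries of their group by a Dixon test, which chance passes in about 1 of 20 groups, and 16 groups were examined. They were the log2 CPM of Hspb2 in the GFP+ library (-0.10), of Cryab in the GFP+ library (7.97) and of Hspb7 in the GFP- library (6.28), each the lowest of its 5. The GFP+ library of 21A7 had 91.2% mitochondrial counts, and its GFP- library had a cardiomyocyte marker sum of 3919 CPM. The part of these values in the low levels was not tested.

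The GFP+ minus GFP- difference of Hspb6 (-2.12), Bag3 (-1.99) and Hspb7 (-1.87) on the log2 scale was smaller in the 17C than in the 21A mice, tested by the interaction with edgeR. For Hspb6 and Bag3, both 17C mice had less in GFP+ cells and the 3 21A mice had more.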

How the results depend on the processing

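The number of genes called was 104 with the mouse as a block, 10 without the replicate block and 33 with library totals alone. Scaled to sarcomere genes it was 0 (943 at an unadjusted p under 0.05, edgeR). It was 886 with DESeq2, 1163 with voom, 818 without a filter on low counts and 357 with the non-myocyte score. In the 17C and 21A mice alone it was 1510 and 889. Leaving out 1 mouse gave 0 (without 17C2, with 1492 at an unadjusted p under 0.05, edgeR) to 173 (without 17C1). The members called, 1 in the paired fit, were 0 without the block, with library totals and with sarcomere scaling, 2 without a filter, 3 with DESeq2, 4 with voom, 4 in each series, and 0 to 1 with 1 mouse left out (0 without 17C2, 21A4 or 21A5). The difference between series called 923 genes, and 473 with library totals. Signs turned for Hspb6 without the block (-0.0025), in the 17C mice (-0.98) and with the non-myocyte score (-0.41). They turned for Bag3 in the 21A mice (0.54), and with library totals for Hspb2 (-0.24), Hspb3 (-0.21), Hspb6 (-0.88) and Hspb8 (-0.28). With 1 mouse left out, log2 fold changes spanned -0.51 to 0.18 for Bag3, -0.18 to 0.97 for Hspb3 and -0.10 to 0.69 for Hspb6. The 17C minus 21A differences turned with library totals to 1.92 (Hspb1), 1.93 (Hspb2), 0.75 (Hspb3), 0.10 (Hspb6), 0.34 (Hspb7), 1.09 (Hspb8), 0.90 (Cryab) and 0.18 (Bag3). Of 167 values for single members, 131 were unchanged and 19 turned sign. Unchanged means the same direction and side of the threshold. For the changes relative to sarcomere genes, which have no p, it means the same direction and a shift below the SD. The call was lost in 9 (6 of Hspb1, and the 3 series differences of Hspb6, Hspb7 and Bag3 with library totals) and newly reached in 12, of which 1 also turned sign (Hspb6 in the 17C mice). The cause was not tested. Hspb3 was not tested under the 5 CPM filter. With 5 pairs a call over all genes needs changes that are large against the spread between mice.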
